A study of Mus musculus with 10 samples.

Results

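The 35 genes described here encode the proteins that cut the 3′ end of a pre-mRNA, add its poly(A) tail, bind that tail and remove it. They were chosen by name from known factors by a rule that used no values, although the list was drawn up with earlier results of these data known. All 35 are among the 22552 genes listed in the expression tables. By known role, 20 are addition factors, 2 are cytoplasmic tail-binding proteins and 13 are removal factors. In 34 of the 35 the mean level reached the minimum for testing.

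As background, the cleavage and polyadenylation specificity factor (CPSF, here Cpsf1, Cpsf2, Cpsf3, Cpsf4, Fip1l1 and Wdr33) recognises the poly(A) signal, and its subunit Cpsf3 cuts the RNA. The cleavage stimulation factor (CstF) binds downstream of the cut, cleavage factor I (Nudt21 with Cpsf6 or Cpsf7) binds upstream and influences which site is used, and poly(A) polymerase adds the tail. In the cytoplasm Pabpc1 coats the tail, and the Pan2-Pan3 and Ccr4-Not complexes shorten it, which usually opens the way to decay of the mRNA.

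The study asked how Cirbp and Rbm3, RNA-binding proteins induced by mild cold, bear on poly(A) site choice in mouse embryonic fibroblasts (MEFs). Polyadenylated RNA was read in 8 libraries, 2 for each of 4 groups: mock-transfected MEFs at 37 °C, mock-transfected MEFs at 32 °C, and MEFs at 37 °C transfected with siCirbp or with siRbm3, small interfering RNAs against Cirbp or Rbm3. The other 2 samples are PAR-CLIP libraries, 1 per protein, from MEFs that stably carry FLAG-tagged Cirbp or FLAG-tagged Rbm3, kept at 37 °C and fed 100 µM 4-thiouridine for 16 h. In PAR-CLIP, RNA crosslinked to the tagged protein is pulled down and sequenced to map its binding sites. The labels give no strain, no time spent at 32 °C, no promoter for the tagged proteins and no statement that a line is 1 clone. Separate cultures are not stated for replicates either, nor whether siRNA numbers 1 and 2 are different siRNAs, so the p-values measure only the spread between these libraries.

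Depth ran from 24.8 to 27.8 M mapped fragments per RNA-seq library. Replicates were closest in the mock groups: over all tested genes the median gap (absolute log2) was 0.0879 at 37 °C and 0.107 at 32 °C, beside 0.261 between the siCirbp libraries and 0.313 between those of siRbm3. By the mean of all 8 RNA-seq libraries, 8 of 9 fibroblast markers were above 1 FPKM and Thy1 was not. All 4 endothelial and 4 of 5 epithelial markers were below 1 FPKM by the same mean. FPKM, the unit of level, is the number of fragments divided by transcript length and by the library's mapped fragments. The siCirbp libraries had 10.8 and 6.07 FPKM of Cirbp, where mock cells had 15.9 and 17.1 at 37 °C and 34.5 and 37.2 at 32 °C. For Rbm3, mock cells had 1.85 and 2.21 at 37 °C and 3.64 and 3.20 at 32 °C, and siRbm3 replicates 1 and 2 had 3.05 and 1.16. Rbm3 was at 5.54 and 7.55 after siCirbp, the highest values of the 8 libraries, and Cirbp was at 13.8 and 23.8 after siRbm3. The first siRbm3 library was thus above both controls for its own target, so directions drawn from that group concern libraries with that label. The RNA is from bulk cultures, in which fewer cells of a type and less RNA per cell cannot be told apart.

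Most members were of middling abundance and were read deeply. Pabpc1, the main cytoplasmic poly(A)-binding protein, was the highest in every library. In mock 37 °C it had 146 ± 0.68 FPKM (SD, n = 2), followed by Tob1, which recruits the Ccr4-Not complex to mRNAs, at 60.4 ± 1.4. Cnot1, the scaffold of Ccr4-Not, followed at 49.9 ± 1.4 and the deadenylase Cnot7 at 46.2 ± 2.0, and the libraries of these 4 genes did not overlap. Pabpn1, the nuclear poly(A)-binding protein, at 44.0 ± 1.1 and the deadenylase Cnot6 at 43.5 ± 2.9 did overlap. The lowest 2 members were Pabpc4, with 0.911 to 4.25 FPKM and 68 to 336 reads per library, and Nudt21. The mock libraries had 0.511 and 0.486 FPKM of Nudt21 at 37 °C and 0.158 and 0.208 at 32 °C, siCirbp had 0.495 and 0.276, and siRbm3 had 0.614 and 0.705. That is 4 to 16 reads per library on its 1 listed transcript of 1111 nt, and it was not tested. Whether that transcript covers the gene's RNA was not tested either. Its partners Cpsf6 and Cpsf7 were at 10.3 to 30.2 FPKM in the same libraries. The pairs Cstf2 and Cstf2t, Cnot6 and Cnot6l, and Cnot7 and Cnot8 are close relatives, and Pabpc1 has near-identical copies. How reads that match several places were counted is not given in the sources used here, so the levels of these genes are uncertain to that extent.

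Promoter sequences from RefSeq (build GRCm38.p6) were found for 30 of the 35 members, by symbol. The 100 bases before the annotated start are shown for 5 genes that were lower at 32 °C and for Cnot10, which was higher, which are the changed members with an entry. Cpsf1 and Pabpc1, which were also lower, are named only. Capitals mark matches, on either strand, to GGGCGG (the GC box, CCGCCC in reverse) or CCGGAAG (an ETS-type motif, CTTCCGG in reverse); matches can overlap each other.
Sympk, chr7:19024277-19024376, plus strand: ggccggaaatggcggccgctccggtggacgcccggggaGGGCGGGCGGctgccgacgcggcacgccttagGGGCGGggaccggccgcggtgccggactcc
Tob2, chr15:81858327-81858426, minus strand: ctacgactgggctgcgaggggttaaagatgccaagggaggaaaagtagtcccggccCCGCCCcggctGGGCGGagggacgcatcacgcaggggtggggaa
Cnot3, chr7:3645169-3645268, plus strand: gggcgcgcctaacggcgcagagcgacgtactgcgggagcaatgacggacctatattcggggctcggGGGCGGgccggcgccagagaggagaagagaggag
Cpsf7, chr19:10525144-10525243, plus strand: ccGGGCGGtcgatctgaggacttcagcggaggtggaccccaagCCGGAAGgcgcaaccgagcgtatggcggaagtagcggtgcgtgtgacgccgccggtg
Pabpc4, chr4:123282811-123282910, plus strand: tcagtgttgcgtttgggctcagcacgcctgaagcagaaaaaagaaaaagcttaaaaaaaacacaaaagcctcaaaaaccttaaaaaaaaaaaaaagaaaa
Cnot10, chr9:114640201-114640300, minus strand: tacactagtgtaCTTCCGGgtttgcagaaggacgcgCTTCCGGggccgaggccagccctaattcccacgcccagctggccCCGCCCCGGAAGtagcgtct

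GGGCGG was present in 4 of these 5 lower genes and in Cnot10, in 16 of the 30 members and in 24.7% of all 32851 promoters of the same length. Sympk held it 3 times and had a GC content of 82.0%, whereas the Pabpc4 window held none and had 33.0%. CCGGAAG was found in 3 of the 30 members and in 4.52% of all promoters, and Cnot10 held it 3 times. Searches for CCAAT and TATAAA matched none of the 5 lower genes, against 18.9% and 5.56% of all promoters. The median GC content was 67.0% over the members and 55.0% over all promoters. These are matches of letters in a fixed window, and binding there was not measured.

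At 32 °C, 7 of the 34 tested members fell and 1 rose. The falls took in all 3 roles: the cleavage factors Sympk, Cpsf1 and Cpsf7, both tail-binding proteins, and the removal factors Cnot3 and Tob2. The single rise was Cnot10, a subunit of Ccr4-Not. Together these are 23.5% of the members. In the same fit limma called 32.8% of all 10901 genes tested (13.0% higher and 19.8% lower). The members' share was thus not above the background in this fit. The split between rises and falls depends on scaling: after centring each library on its median, which moves the median of all genes by 0.125 on the log2 scale, 5 members were called higher and 6 lower, and after quantile normalisation 3 and 9.

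Sympk (chr7:19609726-19639971, mm9) encodes symplekin, the scaffold that holds CPSF and CstF together. Its level was 29.8 and 34.4 FPKM in mock 37 °C and 10.6 in both libraries of mock 32 °C. In siCirbp it was 32.8 and 32.0 and in siRbm3 35 and 48.7, so the 32 °C libraries stood below all others. The change at 32 °C was -1.51 on the log2(FPKM + 1) scale (SE 0.18, limma, adjusted p = 0.00272), the furthest from 0 among the members. It was also the only member called in each fit that left out 1 library. Cpsf1 (chr15:76426238-76438021), the largest CPSF subunit, had 18.9 and 21.6 FPKM in mock 37 °C and 11.4 and 10.7 in mock 32 °C. Its levels were 21.6 and 25.5 in siCirbp and 22.3 and 29.1 in siRbm3, again all above the 32 °C libraries, and it fell by 0.82 (SE 0.18, adjusted p = 0.0136). Cpsf7 (chr19:10599734-10622225), the subunit of cleavage factor I that can replace Cpsf6, had 25.2 and 24.9 FPKM against 18.3 and 17.9. It fell by 0.45 (SE 0.13, adjusted p = 0.0353), and it was at 30.2 and 29.3 in siCirbp and 28.9 and 25.8 in siRbm3. This was the weakest of the calls: with only the highest transcript used, its change was -0.19 and its adjusted p was 0.496.

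Pabpc1 (chr15:36525413-36538728) had 146 and 145 FPKM in mock 37 °C and 61.5 and 59.0 in mock 32 °C. With 149 and 150 in siCirbp and 138 and 206 in siRbm3, every 37 °C library was above both 32 °C libraries. It fell by 1.26 (SE 0.20, limma, adjusted p = 0.00542). Pabpc4 (chr4:122960154-122976076), its inducible relative, had 2.64 and 2.37 FPKM against 1.05 and 0.911 at 32 °C, and 2.38, 4.25, 2.57 and 2.77 in the siRNA libraries. It fell by 0.82 (SE 0.22, adjusted p = 0.0273), a change that the pseudocount of 1 makes smaller at such low levels.

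Among removal factors, Tob2 (chr15:81678700-81688756), a relative of Tob1 that also recruits Ccr4-Not, had 13.9 and 16.8 FPKM in mock 37 °C and 6.14 and 6.92 in mock 32 °C. It fell by 1.11 (SE 0.22, limma, adjusted p = 0.0110), and its siRNA libraries, at 12.9, 20.8, 20.8 and 20.5, did not overlap with the 32 °C libraries. Cnot3 (chr7:3596871-3612711), a subunit that joins Cnot2 in the Ccr4-Not core, had 11.1 and 12.6 FPKM against 5.37 and 5.13, and fell by 1.04 (SE 0.14, adjusted p = 0.00344). Cnot3 was at 15.2, 16.4, 16.1 and 16.1 in the siRNA libraries, above every mock library. Cnot10 (chr9:114494992-114549318) had 17.4 and 19.0 FPKM in mock 37 °C and 26.5 and 30.0 in mock 32 °C. It rose by 0.61 (SE 0.14, adjusted p = 0.0180), with siCirbp at 23.4 and 21.6 and siRbm3 at 21.5 and 24.0 in between.

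**Figure D1:**
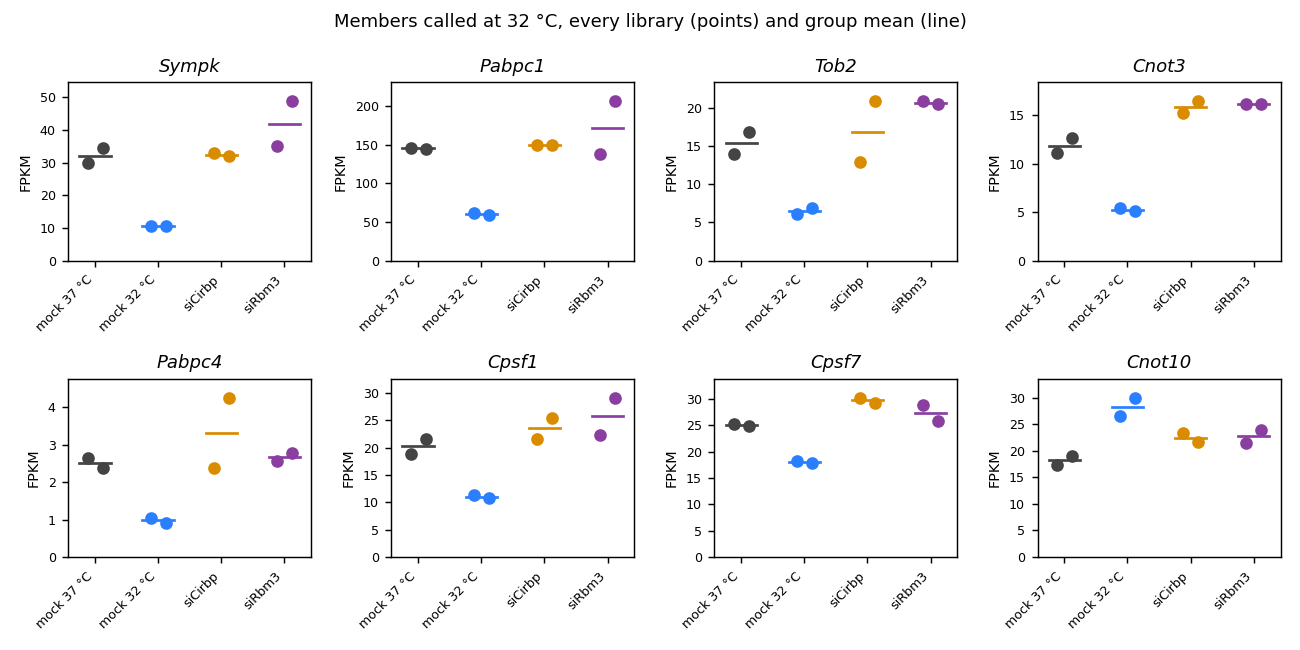
FPKM of the 8 members called at 32 °C in each of the 8 libraries (points), with the mean of the 2 libraries of each group as a line; each vertical axis starts at 0 and has its own range. In 7 panels both 32 °C libraries lie below every other library, and in the Cnot10 panel they lie above, with Sympk going from 29.8 and 34.4 to 10.6.

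The calls at 32 °C rest on few libraries. Without mock 37 °C replicate 1, limma called 2 members (Sympk and Cnot3), without mock 37 °C replicate 2 or mock 32 °C replicate 2 it called 1 (Sympk), and without mock 32 °C replicate 1 it called 3 (Sympk, Cnot3 and Pabpc1). Without either siRbm3 library it called 16, of which 5 were higher and 11 lower. Calls over all genes moved the same way, from 3573 to between 395 and 5071.

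A further 4 members had an adjusted p between 0.05 and 0.1. Parn, a deadenylase that acts on its own, was at 17.8 and 18.5 FPKM in mock 37 °C and 28.6 and 31.0 in mock 32 °C, a difference of 0.68 (limma, adjusted p = 0.0545). Pabpn1, which controls tail length during addition, was at 43.2 and 44.7 against 32.1 and 31.5 (-0.45, adjusted p = 0.0553). The endonuclease Cpsf3 was at 12.0 and 12.4 against 15.9 and 18.1 (0.44, adjusted p = 0.0683). Fip1l1, which ties poly(A) polymerase to CPSF, was at 37.7 and 37.9 against 29.1 and 28.4 (-0.38, adjusted p = 0.0724). In all 4 the mock groups did not overlap.

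The members of this paragraph did not pass the test. Tob1 was at 59.4 and 61.4 FPKM in mock 37 °C and 53.8 and 56.0 in mock 32 °C, and Cnot7 at 47.6 and 44.7 against 33.1 and 35.2. The deadenylase Cnot6 was at 45.6 and 41.5 against 44.1 and 45.8, and its relative Cnot6l at 25.7 and 23.6 against 17.6 and 17.1. Cnot2 was at 30.0 and 30.9 against 34.3 and 35.6, and Pan3 at 19.1 and 18.0 against 20.8 and 19.4. The lower levels of Tob1, Cnot7 and Cnot6l and the higher levels of Cnot2 and Pan3 did not overlap with the controls. Among addition factors, Cpsf4 was at 9.35 and 12.0 against 13.3 and 12.8, Cpsf6 at 20.0 and 19.4 against 24.0 and 22.2, and Wdr33 at 21.2 and 22.3 against 20.9 and 23.8. Over all 8 libraries, Pcf11, a termination factor, ranged from 5.38 to 13.1 FPKM, the kinase Clp1 from 6.06 to 13.1, the ubiquitin ligase Cnot4 from 5.97 to 10.1 and the deadenylase Cnot8 from 21.0 to 29.1.

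Counting groups that do not overlap, both 32 °C libraries were above both 37 °C libraries in 14 members and below in 13. These are 41.2% and 38.2% of the members, beside 41.0% and 43.8% of all tested genes. The 14 include 10 addition factors (Cpsf2, Cpsf3, Cpsf4, Cpsf6, Clp1, Papolg and the 4 CstF genes) and the removal factors Cnot2, Cnot10, Pan3 and Parn. None of the 10 addition factors passed the adjusted test. CstF showed the same side in each of its genes: Cstf1 was at 24.3 and 28.5 FPKM against 29.9 and 33.1, Cstf2 at 27.9 and 27.3 against 30.4 and 32.9, Cstf2t at 30.0 and 28.8 against 34.3 and 38.8, and Cstf3 at 15.4 and 15.4 against 20.1 and 23.3. After centring on library medians, Cstf2t was among the 5 members called higher, with Cpsf2, Cpsf3, Parn and Cnot10. Some core factors moved little: Papola, the canonical poly(A) polymerase, was at 24.8 and 25.2 FPKM in mock 37 °C and 24.6 and 25.0 in mock 32 °C. Cnot1 was at 50.9 and 48.9 against 51.8 and 48.7.

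**Figure D2:**
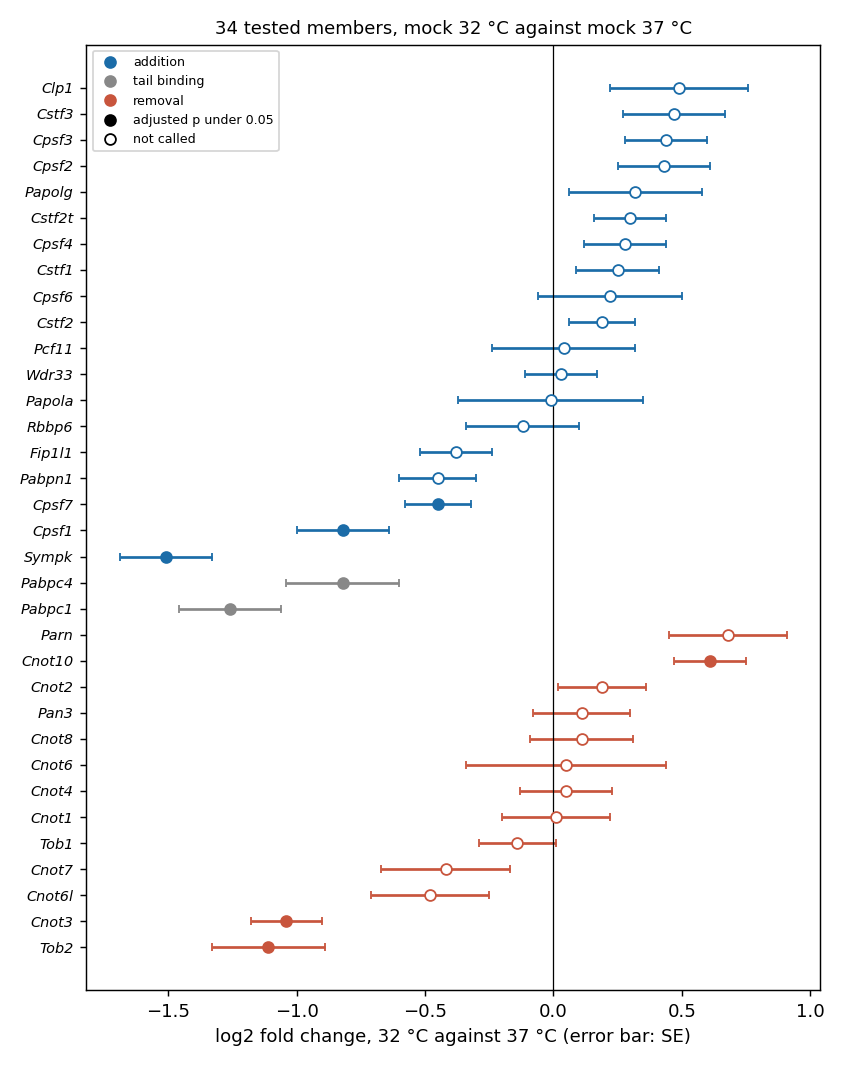
Change of the 34 tested members in mock 32 °C against mock 37 °C, as the log2 fold change of FPKM + 1 with its standard error, grouped by role; filled points have an adjusted p under 0.05. The called members are Sympk, Cpsf1 and Cpsf7 among addition factors, Pabpc1 and Pabpc4, and Tob2, Cnot3 and Cnot10 among removal factors, and changes run from -1.51 to 0.68.

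Among 48 other genes of tail metabolism, 47 were listed and 39 were tested. At 32 °C, 4 rose (10.3%) and 11 fell (28.2%), together 38.5%. Over all tested genes these shares were 13.0%, 19.8% and 32.8%. With the smallest adjusted p, Ccrn4l, the deadenylase-family protein nocturnin, went from 21.0 and 21.2 FPKM to 8.25 and 7.96 (-1.28, SE 0.13, limma, adjusted p = 0.00202). Zfp36, which binds AU-rich elements and recruits deadenylases, went from 33.6 and 35.5 to 8.37 and 7.69 (-1.98, SE 0.24, adjusted p = 0.00276). Lsm1, part of the ring that binds shortened tails before decapping, went from 7.11 and 8.30 to 15.1 and 17.9 (1.01, SE 0.16, adjusted p = 0.00542). Pnrc1, a nuclear receptor coactivator linked to decapping, went from 55.5 and 55.4 to 25.2 and 28.1 (-1.03, SE 0.17, adjusted p = 0.00613). Ccrn4l and Zfp36 were called in all 8 fits that left out 1 library, Lsm1 in 6 and Pnrc1 in 4, with adjusted p up to 0.0696. The 10 proliferation genes read for context, such as Mki67 and Ccna2, summed to 193 to 200 FPKM in mock 37 °C and 43.2 to 51.5 in mock 32 °C, and 9 of the 10 fell. Neural markers summed to 50.1 to 53.3 and 17.2 to 18.2 FPKM in these groups, epithelial markers to 1.41 to 1.75 and 0.0947 to 0.202, and macrophage markers to 17.6 to 20.6 and 30.4 to 35.9. Muscle markers summed to 47.7 to 52.4 at 37 °C and 37.8 to 40.1 at 32 °C, and fibroblast markers to 9036 to 9131 and 10034 to 12704. By the mean of all 8 libraries, the macrophage markers Ptprc, Emr1 and Csf1r and the muscle markers Myod1 and Myog were under 1 FPKM. The part of these shifts in the members' changes was not tested.

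The median locus span of the 7 members that fell at 32 °C was 15.8 kb (10.1 to 30.2), beside 32.3 kb for the other 27 tested members (3.75 to 130) and 21.3 kb for all tested genes. The ranges overlap, and Sympk (30.2 kb) and Cpsf7 (22.5 kb) were longer than the median of all tested genes. Their median transcript length, 3577 nt, was above the 3082 nt of the other members and the 2766 nt of all tested genes. Across the 34 members, Spearman's rho of the change with transcript length was -0.16 and with span 0.24, beside -0.34 and -0.17 across all tested genes. All points of these correlations share the same 4 libraries, and they are given as a description.

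In siCirbp against mock 37 °C, limma called none of the 34 members, beside 3.39% of all tested genes (302 or 2.77% higher and 68 or 0.624% lower). At an unadjusted p under 0.05, which 24.2% of all tested genes reached, there were 6 members: Cpsf2, Cpsf4, Cstf3, Pabpn1 and Cnot3 on the higher side and Tob1 on the lower. Both siCirbp libraries were above both controls in 20 members (58.8%), against 38.5% of all tested genes, and below in 3 (8.82% against 21.9%). The 20 include 13 of 19 addition factors (68.4%) and 6 of 13 removal factors (46.2%). The comparison uses the same mock 37 °C libraries as the one at 32 °C.

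Cstf3 had the largest difference among the members in siCirbp: 15.4 and 15.4 FPKM in mock 37 °C and 25.9 and 24.4 in siCirbp, or 0.68 (SE 0.20, limma, adjusted p = 0.102). Pabpn1 was at 73.2 and 59.2 FPKM against 43.2 and 44.7 (0.57, SE 0.15, adjusted p = 0.0799). Cpsf4, a zinc-finger subunit that contacts the poly(A) signal, was at 15.1 and 17.4 against 9.35 and 12.0 (0.57, SE 0.16, adjusted p = 0.0909). Cpsf2, the partner of Cpsf3, was at 18.9 and 23.3 against 14.3 and 13.3 (0.57, SE 0.18, adjusted p = 0.114). At the other end, Tob1 was at 39.6 and 49.7 FPKM against 59.4 and 61.4 (-0.44, SE 0.15, adjusted p = 0.142). None of these groups overlapped with the controls. When either siRbm3 library was left out of the fit, limma called 3 members in siCirbp: Cpsf2, Cstf3 and Pabpn1, all higher. Calls over all genes in those fits were 1612 and 1608, 14.8% of the genes tested, where 370 were called with all 8 libraries. The all-gene count was not stable in either direction: it was 13 and 15 without mock 37 °C replicates 1 and 2, 4 without either mock 32 °C library, 677 and 8 without siCirbp replicates 1 and 2, 13 with only the 2 groups fitted and 3 with the replicate block. Of the other 39 genes, 2 fell, Btg2 and Zfp36 (5.13%, beside 0.624% of all tested genes called lower). Btg2, an antiproliferative protein that activates Ccr4-Not, went from 27.3 and 25.2 FPKM to 10.3 and 7.80 (-1.45, SE 0.20, adjusted p = 0.0256), and Zfp36 to 11.3 and 11.7 (-1.50, SE 0.24, adjusted p = 0.0285). Of the 8 fits that left out 1 library, Btg2 was called in 3 and Zfp36 in 2 (adjusted p 0.0105 to 0.282 and 0.00530 to 0.282), and with the replicate block neither was called (0.0552 and 0.0617). The proliferation genes summed to 483 to 578 FPKM in siCirbp, above the 193 to 200 of the controls, and fibroblast markers to 5735 to 6663, below their 9036 to 9131. Within the proliferation genes, Mki67 overlapped with its controls, at 33.3 and 64.1 against 36.5 and 36.3. Muscle markers summed to 66.7 to 66.8 and neural markers to 56.6 to 76.9, above the controls at 47.7 to 52.4 and 50.1 to 53.3. The part of these sums in the members' values was not tested.

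In siRbm3 against mock 37 °C, limma called none of the members and none of the 10901 genes, a background of 0%. At an unadjusted p under 0.05 there were 1451 genes (13.3%) and 2 members, Papolg and Cnot3. Papolg, a nuclear poly(A) polymerase related to Papola, was at 9.50 and 9.84 FPKM in mock 37 °C and 8.16 and 4.14 in the libraries labelled siRbm3 (-0.64, SE 0.26, adjusted p = 0.372). Cnot3 was at 11.1 and 12.6 against 16.1 and 16.1 (0.42, SE 0.14, adjusted p = 0.350). Both siRbm3 libraries were above the controls in 14 members (41.2%, all genes 37.2%) and below in 4 (11.8%, all genes 13.3%), which were Pcf11, Papolg, Rbbp6 and Tob1. The proliferation genes summed to 248 to 295 FPKM and epithelial markers to 2.54 to 7.68 in these libraries, above the 193 to 200 and 1.41 to 1.75 of the controls. Both libraries were above the controls in 9 of the 10 proliferation genes, and Mki67 was below them, at 32.2 and 10.7 against 36.5 and 36.3. Fibroblast markers summed to 9395 to 11483 and neural markers to 63.8 to 67.9, above the controls at 9036 to 9131 and 50.1 to 53.3. The part of these sums was not tested. With replicate 1 of siRbm3 left out, 5 members were called, all lower: Cpsf6, Pcf11, Papolg, Rbbp6 and Cnot6l. That fit called 951 of all genes (8.72%), and it holds 1 library for siRbm3, which is assumed to vary like the other groups.

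The libraries labelled siRbm3 differed from each other in the members more than those of any other group. A gap of at least 0.5 on the log2 scale separated them in 12 of 34 members, against 5 for siCirbp and 0 for either mock group. All tested genes had the same order of groups, with median gaps of 0.313 for siRbm3, 0.261 for siCirbp and 0.107 and 0.0879 for mock 32 °C and 37 °C. Counts by this limit, and of libraries on opposite sides of the controls, were made for the members only. Cnot6 was at 61.1 FPKM in replicate 1 and 23.5 in replicate 2, Papola at 30.7 and 13.7, and Cpsf6 at 20.7 and 10.3. Of these 12 genes, 10 were lower in replicate 2, and Pabpc1 (138 and 206 FPKM) and Parn (15.4 and 24.1) were higher. For 9 members, replicate 1 was above both controls and replicate 2 below both (Cpsf2, Cpsf6, Cstf3, Papola, Cnot1, Cnot2, Cnot6, Cnot7 and Pan3). The reverse held for 4 (Fip1l1, Pabpc1, Cnot8 and Parn), so a group mean hides opposite positions in 13 members. Replicate 2 was the lower of the pair in 23 of 34 members, of which Cnot3, Cpsf4 and Cstf2 were lower by an amount that rounds to 0, and in 41.1% of all tested genes. It was lower in 15 of the 19 members with a highest transcript over 3000 nt and in 8 of the 15 shorter ones. Spearman's rho of this difference with transcript length was -0.39 over the members and -0.27 over all tested genes, from the same 2 libraries.

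**Figure D3:**
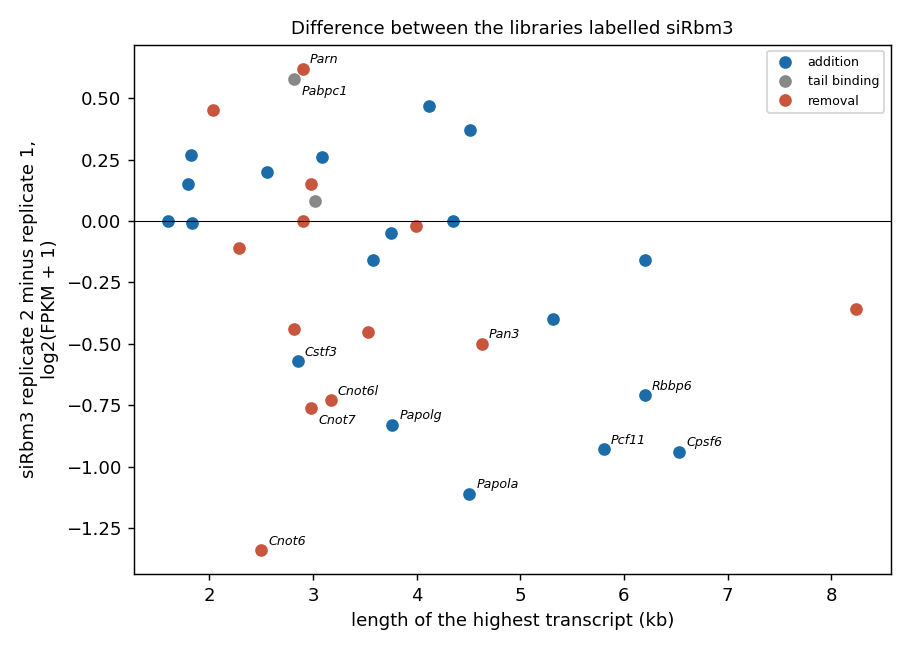
Difference between the 2 libraries labelled siRbm3 (replicate 2 minus replicate 1, log2 of FPKM + 1) against the length of each member's highest transcript in kb, coloured by role; members with a gap of at least 0.5 are named. Cnot6 (-1.34) and Papola (-1.11) lie lowest, and Parn and Pabpc1 lie highest.

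Between siCirbp and siRbm3, limma called none of the members and 4 of all genes (0.0367%), 0.0183% in each direction. At an unadjusted p under 0.05 there were 4 members, all addition factors higher in siCirbp: Cpsf2, Cpsf6, Pabpn1 and Rbbp6, beside 15.2% of all tested genes. Cpsf6 had the largest difference, with 25.1 and 26.9 FPKM in siCirbp and 20.7 and 10.3 in siRbm3 (0.78, SE 0.28, adjusted p = 0.279). The siCirbp libraries were above both siRbm3 libraries in 10 members (29.4%, all genes 20.8%) and below in 2, Sympk and Tob1 (5.88%, all genes 15.6%). Without siRbm3 replicate 1, 13 members were called, 12 of them higher in siCirbp, and 2132 of all genes (19.6%), again with 1 library standing for siRbm3.

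Addition factors were next set against removal factors. The median log2 change of the 19 tested addition factors at 32 °C was 0.19, that of the 13 removal factors 0.05 and that of all tested genes -0.02. In siCirbp the medians were 0.21, 0.10 and 0.08, and in siRbm3 0.16, -0.13 and 0.12. These 3 comparisons share the mock 37 °C libraries. The addition median exceeded the removal median by 0.14, 0.11 and 0.28 in turn, and by 0.07 in siCirbp against siRbm3. By library, relative to the mock 37 °C mean, this gap was 0.11 in both 32 °C libraries, 0.14 and 0.08 for siCirbp and 0.11 and 0.40 for siRbm3. The 0.40 came from replicate 2, where the removal median was -0.31 and the median of all genes 0.20, and without that library the siRbm3 gap was 0.11. Leaving out mock 37 °C replicate 1 brought the gap to 0.03 both at 32 °C and in siCirbp. Within each role the members spread far more widely than these gaps, from -1.51 (Sympk) to 0.49 (Clp1) for addition and from -1.11 (Tob2) to 0.68 (Parn) for removal at 32 °C. No test of the gap was made, since it is a difference between lists of chosen genes.

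**Figure D4:**
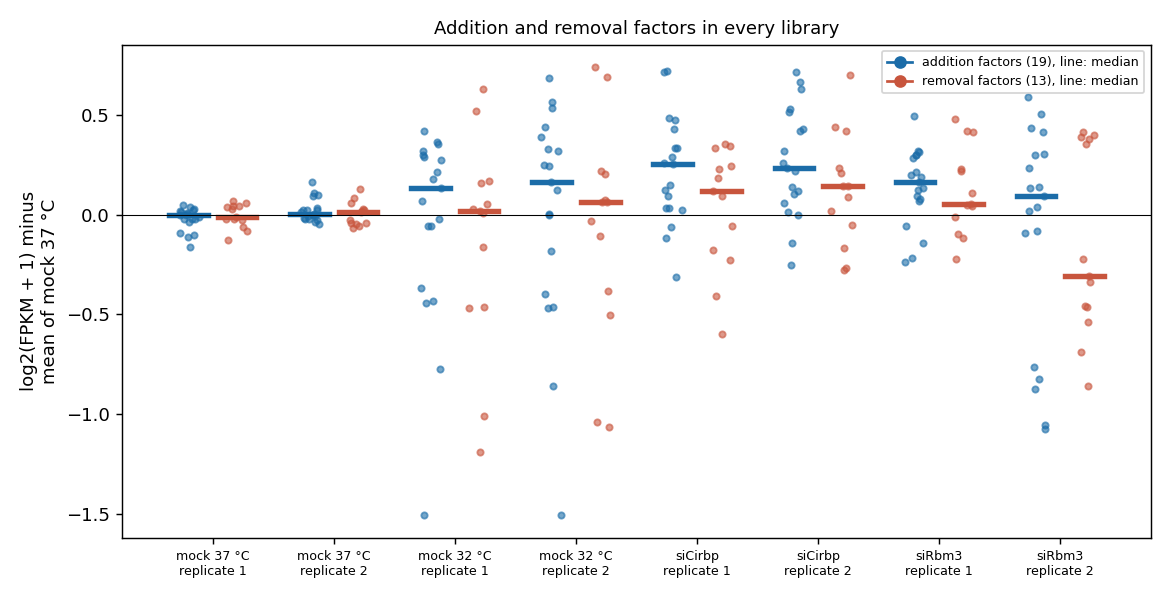
log2(FPKM + 1) of each tested addition factor (19, blue) and removal factor (13, red) in each library, minus the gene's mean in mock 37 °C, with thick lines at the medians. Medians of the roles lie within 0.14 of each other in every library but the second siRbm3 library, where addition is at 0.09 and removal at -0.31.

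Some members have listed transcripts that end early in the gene, where cleavage and polyadenylation take place before the last exon. As background, Cstf3 is known to use a poly(A) site in an early intron. For 21 transcripts of 8 members the share within the gene could be tested, and limma called none in any comparison. The smallest adjusted p was 0.248 at 32 °C, 0.358 in siCirbp, 0.714 in siRbm3 and 0.453 between the siRNAs. Over all 2936 transcripts tested, 7 (0.238%) were called at 32 °C and none in the others. An unadjusted p under 0.05 was reached by 2, 4, 4 and 8 of the 21 member transcripts in turn. Over all 2936 transcripts the counts were 420, 334, 134 and 294. Shares within 1 gene depend on each other. The genes Cstf3, Rbbp6 and Wdr33 were singled out for their listed transcripts after their values were seen. In Cstf3 the transcripts that stop short of the full 3′ end made up 35.6% and 31.5% of the FPKM in mock 37 °C and 46.7% and 39.7% in mock 32 °C. The share was 35.7% and 33.9% in siCirbp and 31.7% and 57.6% in siRbm3, so the second siRbm3 library was the highest. The full-length transcript of 2852 nt was at 15.1 and 6.16 FPKM in those siRbm3 libraries, while the short one of 778 nt was at 6.38 and 8.05. In Rbbp6, a scaffold-like CPSF-associated protein, the short transcript held 30.7% and 29.0% in the mock libraries at 37 °C and 36.2% and 41.6% at 32 °C. After siCirbp it held 27.6% and 22.4%, and after siRbm3 27.5% and 40.9%. Wdr33, the subunit that reads the poly(A) signal with Cpsf4, had 67.0% of its FPKM in shorter transcripts in both mock 37 °C libraries and 68.0% and 73.0% at 32 °C. With siCirbp this was 60.8% and 57.7%, and with siRbm3 60.8% and 63.2%. In all 3 genes the summed share in both 32 °C libraries was above both 37 °C controls, and none of these transcripts passed the test of shares. The sum for Wdr33 joins forms that moved in opposite directions. Its 2548 nt form went from 30.9% and 31.7% to 38.7% and 38.1%, and its 1148 nt form from 36.0% and 35.3% to 29.2% and 34.9%. Among the 30 members whose strand was known, 5 had transcripts that end at least 500 bases short of the others. Their share was above both controls in both 32 °C libraries in Cstf3, Rbbp6 and Cnot4 and overlapped with the controls in Cnot2 and Cnot6l. The same count was not made over all genes, so neither this count nor that of the 3 genes has a background. Cnot4 was at 23.2% and 21.5% against 27.5% and 24.5%, and Cnot6l at 17.2% and 19.4% against 18.3% and 14.6%. Cnot2 was at 0.837% and 0.450% against 1.65% and 0.580%. Transcripts that differ by few bases split unstably: the 2974 nt form of Fip1l1 was at 6.71 and 17.5 FPKM in the 2 mock 37 °C libraries while the gene's sum was 37.7 and 37.9.

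PAR-CLIP sites of both proteins fell in member loci. Cirbp had 27 sites in 12 of the 35 members (34.3%) and Rbm3 had 14 sites in 11 members (31.4%), where 8.26% and 8.69% of all tested genes, and 11.2% and 10.6% of those with at least 10 FPKM, held a site. By role, Cirbp sites lay in 8 of 13 removal factors (61.5%), 3 of 20 addition factors (15.0%) and Pabpc1. Rbm3 sites lay in 5 of 13 removal factors (38.5%), 5 of 20 addition factors (25.0%) and Pabpc1. Sites were counted over the whole locus, and these shares were not matched for locus span. The 8 removal factors with a Cirbp site spanned 4.04 kb (Tob1) to 118 kb (Pan3). The 3 addition factors with a Cirbp site spanned 32.3 kb (Cpsf6) to 74.9 kb (Cstf3), and the median of all tested genes was 21.3 kb. The part of span in these shares was not tested. With 1 library per protein there is no replicate check and no test. Of the 17 members with any site, 6 had sites of both proteins: Cnot2, Cnot6, Cnot6l, Pan3, Tob1 and Pabpc1.

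Sites of Cirbp and Rbm3 overlapped in 3 places. In Cnot2, a core subunit of Ccr4-Not, the Cirbp site chr10:115922378-115922405 and the Rbm3 site chr10:115922372-115922419 (mm9, minus strand) share the marked base 115922381, with deposited scores of 371 and 502. It lies 164 bases from the 3′ end of the locus, and a second Rbm3 site marks a base 60 bases from it. In Pabpc1 (minus-strand sites) both proteins mark base 36538086 on chromosome 15, with scores of 101 each. In Cnot6 the marked bases 49495554 and 49495556 on chromosome 11 lie 2 bases apart, 159 each in score. Scores are the authors' own, run from 1 to 1000 with medians of 301 for Cirbp and 318 for Rbm3, and have no stated scale.

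Cirbp sites near the 3′ end of the locus were found in 6 members. Of 16 Cirbp sites in members whose strand was known, 6 (37.5%) lay within 500 bases of the 3′ end, beside 134 of 1174 (11.4%) over all loci with a known strand. For Rbm3 these were 3 of 12 (25.0%) beside 74 of 1306 (5.67%). The 6 Cirbp sites were 55 bases from the end in Tob1, 65 in Cnot6, 154 in Papola, 164 in Cnot2, 189 in Cstf3 and 482 in Tob2. The 3 Rbm3 sites were those in Cnot2 and 1 in Cpsf4, 133 bases from its end. Cnot1 and Cnot6 held 5 Cirbp sites each and Pabpc1 held 4. Cnot7 held 2 Cirbp sites inside its listed span, and 2 more lay 169 and 217 bases outside it. The highest score of a member site was 506 for Cirbp (Cnot6) and 654 for Rbm3 (Cnot6l, which had another of 487). With sites at or above the median score only, 13 Cirbp sites in 8 members and 7 Rbm3 sites in 5 members were left.

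**Figure D5:**
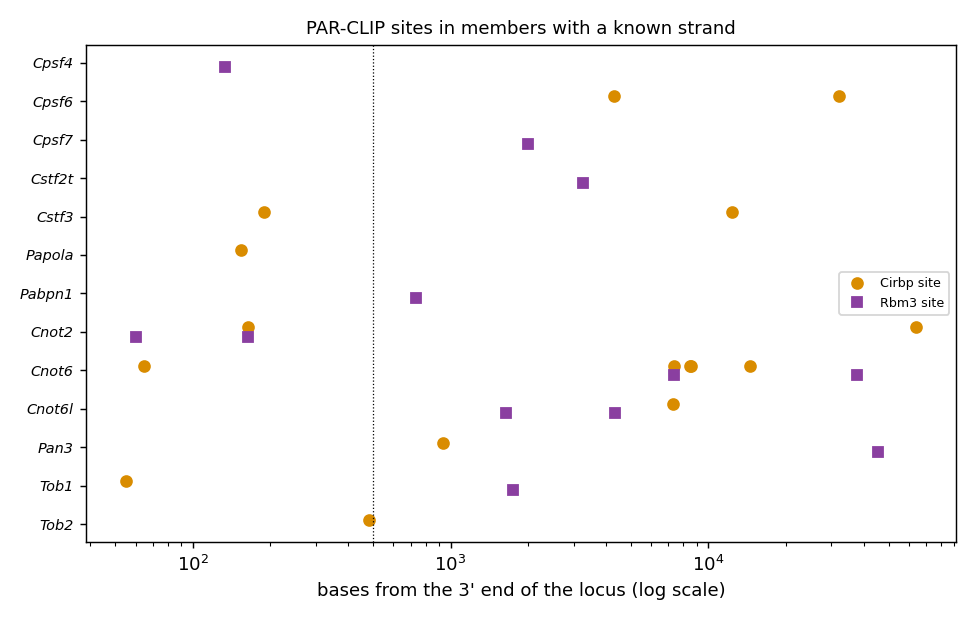
Distance in bases (log scale) from the 3′ end of the locus to the marked base of each PAR-CLIP site, for members with a known strand and at least 1 site; circles are Cirbp, squares Rbm3, and the dotted line is at 500 bases. Cnot2 shows both proteins at 164 bases, and Cnot6 shows the most Cirbp sites, 5.

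The levels of members with sites are given here beside the libraries in which the protein's own gene was targeted. Of the 12 members with a Cirbp site, limma called none in siCirbp, where it called 3.39% of all tested genes. Cnot1 was at 37.3 and 55.2 FPKM in siCirbp against 50.9 and 48.9 in mock 37 °C, and the first of these rests on transcripts that the deposited table marks as failed estimates. Cnot2 was at 34.7 and 33.8 against 30.0 and 30.9, Cnot6 at 51.7 and 71.3 against 45.6 and 41.5, and Cnot7 at 54.3 and 44.4 against 47.6 and 44.7. Of these 4 removal factors, Cnot2 and Cnot6 had both siCirbp libraries above the controls, and Cnot1 and Cnot7 overlapped with them. Cnot6l was at 21.7 and 21.8 against 25.7 and 23.6, and Pan3, the adaptor of the Pan2 deadenylase, at 17.8 and 19.8 against 19.1 and 18.0. Papola was at 23.0 and 36.6 FPKM against 24.8 and 25.2, and Cpsf6 at 25.1 and 26.9 against 20.0 and 19.4. Cstf3 was at 25.9 and 24.4 against 15.4 and 15.4, and Tob1 at 39.6 and 49.7 against 59.4 and 61.4. The changes of Cstf3 (0.68) and Tob1 (-0.44) were the highest and lowest of all tested members in siCirbp. Tob2 was at 12.9 and 20.8 against 13.9 and 16.8, and Pabpc1 at 149 and 150 against 146 and 145. Members with Rbm3 sites were likewise not called in siRbm3, where limma called none of all 10901 genes tested. That outcome therefore does not set members with sites apart. Cstf2t, the autosomal relative of Cstf2, was at 33.6 and 32.3 FPKM against 30.0 and 28.8, Wdr33 at 27.0 and 24.0 against 21.2 and 22.3, and Pabpn1 at 46.5 and 51.9 against 43.2 and 44.7. Cnot6l, with the highest Rbm3 score, was at 25.4 and 14.9 against 25.7 and 23.6, and Tob1 at 55.7 and 51.6 against 59.4 and 61.4. Cpsf4 was at 13.3 in both siRbm3 libraries, above its controls at 9.35 and 12.0. Pan3 was at 19.2 and 13.2 and Cnot2 at 32.9 and 23.9, each with its siRbm3 libraries on opposite sides of both controls. The same held for Cnot6 at 61.1 and 23.5 and Pabpc1 at 138 and 206. Cpsf7 was at 28.9 and 25.8 against 25.2 and 24.9. Small changes could not be told from replicate spread here: the SE of a comparison ran from 0.13 to 0.39 over the members. This SE pools the spread of all 4 groups, so a member has the same SE in every comparison. It does not show that replicates were closer in the mock groups than in the siRNA groups.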

How the data were processed

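The FPKM values were used as deposited by the authors, 1 table per library of the kind Cufflinks writes, with reads of 76 bases aligned to mm9 with TopHat 1.1.2 per the submitters' processing notes; the Cufflinks version is not given in the sources used here. Coverage (read depth per base), also deposited by the authors, served to recover library depth. Reads recovered for genes of 1 transcript over 700 nt and under 100 reads were whole within 0.05 in 93.6% to 93.9% of cases. The score of each PAR-CLIP site is as deposited by the authors, and the sources do not name the caller.

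A gene's level is the sum of FPKM over its transcripts. Limma 3.58.1 (R 4.3.3, trend and robust moderation) was fitted on log2(FPKM + 1) over all 8 libraries in 4 groups with 4 residual degrees of freedom. The same variance was used for a gene in all 4 groups, although replicate gaps were wider in the siRNA groups. All 10901 genes with a mean of at least 1 FPKM entered two-sided tests, and p-values were adjusted by Benjamini-Hochberg and called under 0.05. Error values of means are the SD of 2 libraries. The same fit on log2((transcript + 1)/(other transcripts + 1)) tested transcript shares, where a gene averaged 5 FPKM or more and 2 or more transcripts held 10%. The fit was also run on simulated data that gave a gene the same spread in all groups. That run does not cover the wider replicate gaps of the siRNA groups. A PAR-CLIP site was assigned to a gene where its interval overlapped the listed span, and by strand where RefSeq gave one (30 members). Distances to the ends of a locus were taken from the marked base.

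The members and lists were chosen with earlier results of these data known. Values by library are given for members called, members with a PAR-CLIP site and the highest and lowest 2, with up to 4 called genes of the other list per comparison. Exceptions, named after their values were seen, are members with an adjusted p under 0.1, members named for the place of their libraries or for an unadjusted p, the CstF genes, and genes with transcripts that end early. Alternatives were another pseudocount, expression filter, centring, quantile normalisation, removal of a trend with length, the highest transcript only, a replicate block, only the groups compared, each library left out, other share limits, and sites of high score or within 1000 bases.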

Additional observations from a re-analysis of the deposited data

How the results depend on the processing

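No called member changed sign under any alternative, and member values that were not called changed sign in 104 of 2173 settings. At 32 °C the 8 calls became 14 with the length trend removed (7 higher, 7 lower), where 30.8% of all genes were called. The members' share was above that of all genes there, unlike in the main fit. With only the 2 groups fitted, 21 were called (10 higher, 11 lower), beside 69.3% of all genes. When a library was left out, the calls went from 0 to at most 3 in siCirbp, 5 in siRbm3 and 13 in siCirbp against siRbm3, each without siRbm3 replicate 1, where 1612, 951 and 2132 of all genes were called. Without siRbm3 replicates 1 and 2 in turn, the addition median minus the removal median in siRbm3 (0.28) was 0.40 and 0.11. At 32 °C (0.14) it was 0.07 with no filter, 0.19 after quantile normalisation, 0.31 with the length trend removed, 0.18 with the highest transcript only and 0.03 to 0.19 with a library left out. In siCirbp (0.11) it was 0.15 with the length trend removed and with the highest transcript only and 0.03 to 0.14 with a library left out, and in siCirbp against siRbm3 (0.07) it was 0.28 with the highest transcript only and 0.02 to 0.13 with a library left out. PAR-CLIP sites at or above the median score numbered 13 for Cirbp and 7 for Rbm3. The cause of these shifts was not tested.

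The labels do not say that equal replicate numbers pair libraries, and correlations of deviations between same-numbered libraries ran from -0.15 to 0.09. With the replicate block the calls were 8, 0, 0 and 0 and the gaps 0.14, 0.11, 0.28 and 0.07, so it changed no count of members. Over all genes the block gave 3183 calls at 32 °C, where 3573 were made without it, and 3 in siCirbp, where 370 were made. Over all tested genes at 32 °C, calls went from 3573 to 7557 with only the 2 groups fitted and to 395 to 5071 with a library left out. The 8 called members kept their direction in all 135 settings, kept the call in 107 and lost it in 28. Nudt21 had the fewest reads, 4 to 16 per library.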
